A study of Mus musculus with 2 samples.

Results

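The miR-34 and miR-449 family was described in 2 small RNA libraries of adult mouse hippocampus. Its members were taken by gene symbol from the GENCODE M21 annotation of the counted genes: Mir34a, Mir34b, Mir34c, Mir449a, Mir449b and Mir449c, 6 of the 2202 microRNA (miRNA) genes counted. The libraries came from wild-type C57BL/6 mice (strain B6NCrl) aged 6 months and form 1 group, numbered as biological replicates 1 and 2, with no treatment and no second genotype. The tissue is named as a layer of hippocampus with no layer given, and both libraries carry the same donor identifier, so their spread may be technical. The p-values cover counting error only and hold no estimate of the spread between libraries. Each library was trimmed of adapters under a different version of the protocol, so a difference between the replicates and a difference between the trimming versions cannot be told apart.

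A miRNA is cut from a hairpin precursor and pairs with messenger RNAs mainly through its seed, bases 2 to 8 from its 5′ end, so genes that share a seed can share targets. Mir34a is a direct transcriptional target of the tumour suppressor p53 and is expressed in many tissues, including brain. The Mir34b and Mir34c hairpins stand side by side and are made from a shared primary transcript, and the Mir449 hairpins lie in an intron of Cdc20b; both loci are known for high expression in multiciliated cells, such as those of the airway, the oviduct and the ependyma that lines the brain ventricles, where they promote the making of motile cilia. Mir34c has also been studied in the mouse hippocampus in connection with memory and ageing.

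The mature sequences are shown to make the shared seed visible. They are from RefSeq (GRCm38.p6, the assembly also called mm10), run 5′ to 3′, and have the seed in capitals. The 5p arms read:

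miR-34a-5p: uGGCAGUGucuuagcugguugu
miR-34b-5p: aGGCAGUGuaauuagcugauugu
miR-449a-5p: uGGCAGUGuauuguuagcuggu
miR-449c-5p: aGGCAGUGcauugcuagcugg

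These 4 sequences hold the seed GGCAGUG, and no other of the 1738 mature miRNAs in the table did. No 5p sequence of Mir34c and no sequence of Mir449b was in the table, so their absence here says nothing about their seeds. The letters GGCAGUG stood once in each of the 5 family hairpins matched in the table, that of Mir34c included, starting at hairpin base 14 to 27. On the given strand, 17 of 1005 hairpins in the table (1.69%) held them. miR-34a-5p and miR-449a-5p began with the same 9 bases, and miR-34b-5p and miR-449c-5p with the same 8. The 3p arms are shown because they divide the family:

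miR-34a-3p: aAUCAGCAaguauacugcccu
miR-34b-3p: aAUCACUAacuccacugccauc
miR-34c-3p: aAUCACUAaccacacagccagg
miR-449a-3p: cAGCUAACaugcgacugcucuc
miR-449c-3p: cAGUUGCUagcugcacuacccu

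Here only the neighbours miR-34b-3p and miR-34c-3p shared a seed, AUCACUA, within the table, and their first 10 bases were the same. The counts are per hairpin gene and do not separate the arms.

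The family sits at 3 places in the genome (mm10). Mir34a (ENSMUSG00000065493.1) is at chr4:150068454-150068555 on the plus strand, where its last 17 bases overlap an exon of Gm37795, an unconfirmed transcript, beyond both mature arms. Mir34b (ENSMUSG00000065492.1, chr9:51103562-51103645) and Mir34c (ENSMUSG00000065587.1, chr9:51103034-51103110) are on the minus strand 451 bases apart. Both lie within an intron of Btg4, which is transcribed from the opposite strand. Mir449c (ENSMUSG00000076146.1, chr13:113035983-113036091), Mir449b (ENSMUSG00000078027.1, chr13:113037419-113037498) and Mir449a (ENSMUSG00000065575.1, chr13:113037534-113037624) lie within 1642 bases of each other on the plus strand, in an intron of Cdc20b and in its direction. Mcidas, a coactivator that drives multiciliated cell fate, is annotated 37140 bases from Mir449a on the same strand, upstream of the 3 hairpins.

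Reads that aligned to more than 1 place were in no gene's count. They made up 43.8% of all reads in replicate 1 and 45.7% in replicate 2, so levels and ranks describe the remaining reads only. Each of the 9 printed sequences was found whole in transcripts of its own gene only among all annotated M21 transcripts, and the longest stretch that any of them shared with the hairpin of another gene was 9 to 11 bases. The genome outside annotated transcripts was not searched. The libraries held 4247092 counts on miRNA genes in replicate 1 and 5041568 in replicate 2, out of 11106392 and 12627039 reads. Levels are in CPM, the usual scaling of a count to the total counted on all miRNA genes. A gene with 0 counts may stand at up to 3 counts, equal to 0.706 CPM in replicate 1, against 0.595 CPM in replicate 2. No molecular identifiers are named, so all intervals cover counting error only. Beside the tissue label, 10 neuron-enriched miRNA genes were read. All were counted, summing to 206649 CPM in replicate 1, against 185128 CPM in replicate 2. Mir139 alone held 156599 CPM in replicate 1 and 153300 CPM in replicate 2. Mir132 had 32072 CPM in replicate 1, against 14605 CPM in replicate 2, so these genes were not all level between the libraries. By the exact binomial test described below, 6 of the 10 passed as higher in replicate 1 and 3 as lower. Of all genes tested, 22.8% passed as higher and 28.2% as lower. Without another tissue to compare, these levels do not test the label.

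Mir34a was the most abundant member in both libraries. It had 12350 counts in replicate 1 and 24316 in replicate 2, which is 2908 CPM (exact 95% Poisson interval 2857 to 2960) and 4823 CPM (4763 to 4884), a mean of 3865 ± 1354 CPM (SD, n = 2). It ranked 51st and 40th among all 2202 genes by counted reads, which leave out reads aligned to more than 1 place. Replicate 2 held the higher level of this gene, the reverse of the pattern seen for its relatives on chromosome 9.

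Mir34c, whose hairpin also holds the seed letters, had 8318 counts in replicate 1 and 1490 in replicate 2. This is 1959 CPM (exact 95% interval 1917 to 2001) and 296 CPM (281 to 311), with ranks of 67 and 147. The mean was 1127 ± 1176 CPM (SD, n = 2), so the SD was as large as the mean. Its neighbour Mir34b had 598 and 204 counts, 141 CPM in replicate 1 (exact 95% interval 130 to 153), against 40.5 CPM in replicate 2 (35.1 to 46.4), with a mean of 90.6 ± 71.0 CPM. Both genes of this locus were higher in replicate 1.

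The Mir449 locus gave few counts. Mir449a had 75 counts in replicate 1 and 141 in replicate 2, which is 17.7 CPM (exact 95% interval 13.9 to 22.1) and 28.0 CPM (23.5 to 33.0), a mean of 22.8 ± 7.29 CPM (SD, n = 2). Its level was higher in replicate 2, as for Mir34a and unlike Mir34b and Mir34c. Mir449c had 1 and 3 counts (0.235 and 0.595 CPM), at or under the limit of 3 counts, and Mir449b had 0 counts in both libraries. For Mir449b and Mir449c no difference between the libraries could be measured at this depth.

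**Figure D1:**
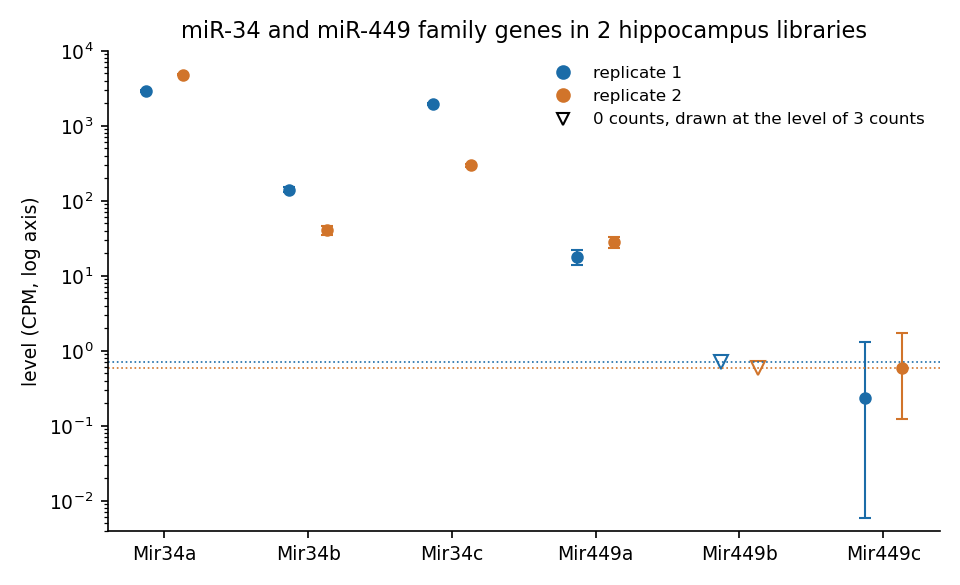
Level of each family gene in CPM on a log axis, with 1 point per library and exact 95% Poisson intervals, which cover counting error only; open triangles mark 0 counts, drawn at the level of 3 counts, and dotted lines show that level in each library. Mir34a leads in both libraries, Mir34b and Mir34c are higher in replicate 1, and Mir34a and Mir449a are higher in replicate 2.

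The order of the counted members was the same in both libraries, Mir34a, then Mir34c, Mir34b, Mir449a and Mir449c. It also held per length, where Mir34a had 28509 and 47285 CPM per kilobase of hairpin in replicates 1 and 2. On that scale Mir34c had 25435 and 3838, Mir34b had 1676 and 482, and Mir449a had 194 and 307. The gap between the first and the second gene was small in replicate 1 and wide in replicate 2. For each pair of neighbours from Mir34a down to Mir449a, the levels in CPM of the 2 libraries did not overlap between the genes, with Mir34b and Mir449a nearest (40.5 CPM for Mir34b in replicate 2 against 28.0 CPM for Mir449a in the same library).

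The summed level of the 6 genes was nearly the same in both libraries, although the genes themselves were not. The family held 21342 counts in replicate 1 and 26154 in replicate 2, which is 5025 and 5188 CPM, a mean of 5106 ± 115 CPM (SD, n = 2). That is 0.503% and 0.519% of all counts on miRNA genes, with a log2 ratio of −0.05 (replicate 1 over replicate 2, exact 95% interval −0.07 to −0.02). Within this sum, the 5 genes of the multiciliated-cell loci stood at 2117 CPM in replicate 1, against 365 CPM in replicate 2, a log2 ratio of 2.54 (2.47 to 2.61).

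The Mir34a locus was set against the multiciliated-cell loci by its share of the family's counts. Mir34a made up 57.9% of them in replicate 1 (exact 95% interval 57.2 to 58.5%), against 93.0% in replicate 2 (counting limits of 92.7 and 93.3%). Mir34a counts were thus 1.37 times those of the other 5 genes in replicate 1 and 13.2 times in replicate 2. The shares differed by a log2 odds ratio of −3.27 (−3.35 to −3.19; exact two-sided Fisher test, adjusted p of 1e-290 or less over 4 such comparisons). This test and those that follow compare the reads of 2 libraries of 1 group, not conditions.

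**Figure D2:**
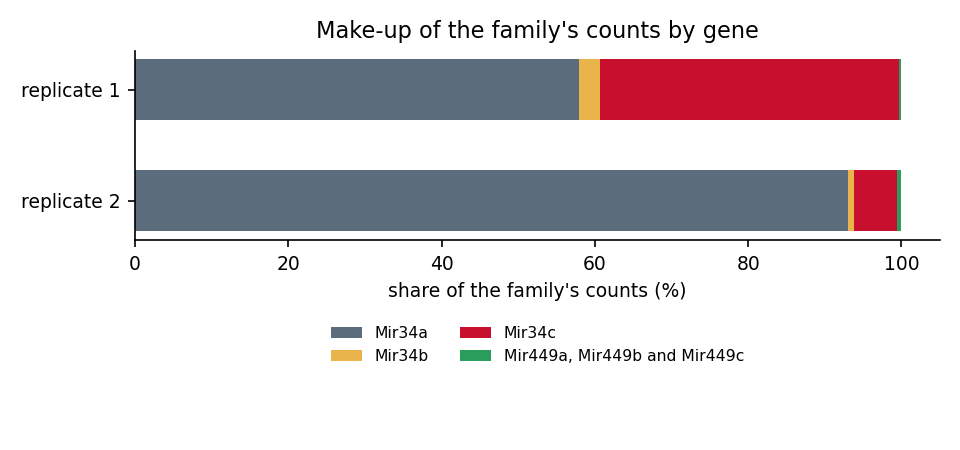
Share of the family's counts taken by each gene, in percent, in 1 bar per library. Mir34a takes 57.9% in replicate 1 and 93.0% in replicate 2, and most of the remainder is Mir34c.

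The multiciliated-cell loci did not move together. Mir34b and Mir34c summed to 2099 CPM in replicate 1, against 336 CPM in replicate 2, whereas the Mir449 genes summed to 17.9 CPM in replicate 1, against 28.6 CPM in replicate 2. The Mir34b and Mir34c locus therefore held 99.2% (exact 95% interval 98.9 to 99.3%) of the 5 genes' counts in replicate 1 and 92.2% (90.8 to 93.4%) in replicate 2, a log2 odds ratio of 3.32 (2.90 to 3.75; exact Fisher test, adjusted p = 9.16e-59). In each library the chromosome 9 locus was far ahead, by 117 to 1 in replicate 1 and by 11.8 to 1 in replicate 2.

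The ratio within each locus was examined next. Mir34c exceeded its neighbour Mir34b 13.9-fold in counts in replicate 1 and 7.30-fold in replicate 2. Mir34c made up 93.3% of the pair's counts in replicate 1 (exact 95% interval 92.8 to 93.8%), against 88.0% in replicate 2 (86.3 to 89.5%), a log2 odds ratio of 0.93 (0.68 to 1.18; exact Fisher test, adjusted p = 9.38e-13). The 2 hairpins of this locus thus differed in their ratio by more than counting error. In the Cdc20b locus, Mir449a made up 98.7% of the counts in replicate 1 (92.9 to 99.97%) and 97.9% in replicate 2 (94.0 to 99.6%). The rest came from Mir449c, and the shares of Mir449a were not distinguishable (exact Fisher test, adjusted p = 1, log2 odds ratio 0.67 with an interval of −3.00 to 6.41).

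Mir449a was also set against Mir34a, a comparison chosen after the values were seen. There were 0.604 Mir449a counts per 100 counts of the 2 genes in replicate 1 (exact 95% interval 0.475 to 0.756), against 0.577 in replicate 2 (0.486 to 0.680). The log2 odds ratio was 0.07 with an interval of −0.36 to 0.48 (exact Fisher test, p = 0.773), so a difference of up to these bounds was not detectable at this count of Mir449a.

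Between the libraries, each gene's level was tested with an exact two-sided binomial test over all 522 genes with at least 10 counts in sum, and 4 of the 6 members entered. Mir34c had a log2 ratio of 2.73 (replicate 1 over replicate 2, exact 95% interval 2.65 to 2.81; adjusted p of 1e-290 or less), and Mir34b one of 1.80 (1.57 to 2.04; adjusted p = 7.08e-61). Mir34a had a log2 ratio of −0.73 (−0.76 to −0.70; adjusted p of 1e-290 or less), and Mir449a one of −0.66 (−1.09 to −0.25; adjusted p = 0.00310). Thus 2 members passed as higher and 2 as lower in replicate 1, where 22.8% of all genes tested passed as higher and 28.2% as lower, or 51% in either direction. At this depth small differences pass, so the size of the ratios was compared with that of other genes.

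Of all genes, 276 averaged 100 or more counts a library. In this set the median size of the log2 ratio, regardless of sign, was 0.36, and the 90th percentile was 1.03. The log2 ratio of Mir34c was the 3rd highest and that of Mir34b the 5th highest, and regardless of sign they ranked 5th and 9th in size. Mir34a, at rank 58, and Mir449a, at rank 75, lay above this median and below the 90th percentile in size. Of these 276 genes, 29 lay more than 2-fold apart.

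**Figure D3:**
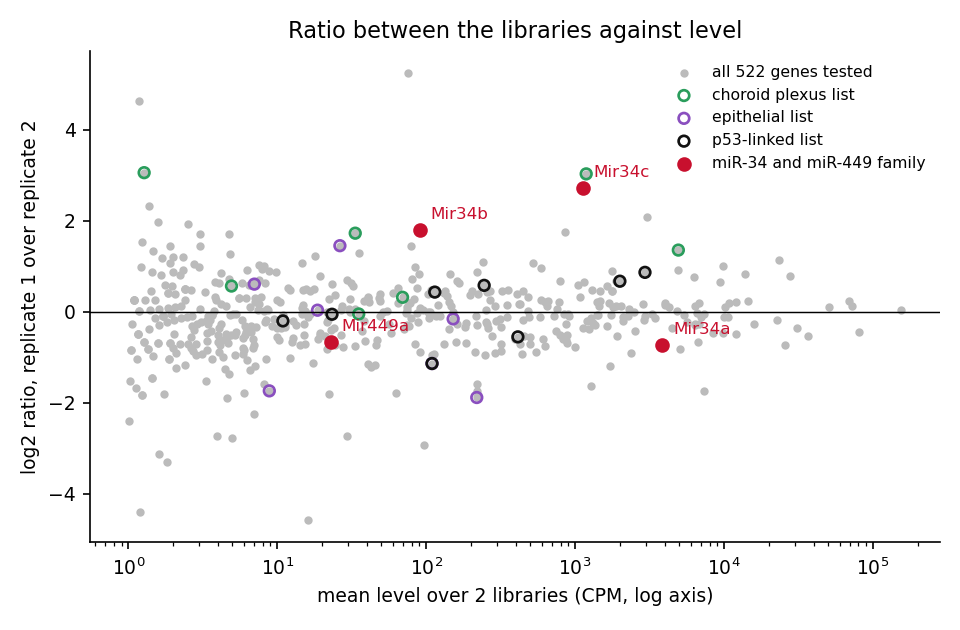
Log2 ratio of replicate 1 over replicate 2 against the mean level of 2 libraries in CPM on a log axis, for the 522 genes tested (grey), the family genes (red) and the members of 3 gene lists (open circles). Mir34c (2.73) and Mir34b (1.80) lie near the upper edge for genes of their level, and Mir34a (−0.73) and Mir449a (−0.66) lie below 0 within the main cloud.

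The genes with log2 ratios closest to that of Mir34c were Mir1298, Mir222, Mir31, Mir1264 and Mir203, over 2 libraries and within the same 276 genes without the family. Mir1298, one of the miRNAs of the Htr2c serotonin receptor gene, was the nearest, at 2117 CPM in replicate 1, against 259 CPM in replicate 2 (log2 ratio 3.03, a gap of 0.30). The others were 0.64 to 1.28 from the log2 ratio of Mir34c, all of them lower. Around Mir34a the ratios were dense. Mir504, Mir125a, Mir6944, Mir3093 and Mir3099 all stood within 0.016 of its log2 ratio, with Mir125a at 19486 CPM in replicate 1, against 32303 CPM in replicate 2.

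Choroid plexus miRNA genes, markers of a tissue that adjoins the ependyma, were mostly higher in replicate 1, as were Mir34b and Mir34c. The list held 7 genes of Trpm3, Trpm1 and Htr2c, all of them counted and none at 0, and it summed to 9390 CPM in replicate 1, against 3157 CPM in replicate 2. Of its 7 genes, 5 passed as higher in replicate 1 and 0 as lower by the exact binomial test, beside 22.8% and 28.2% of all genes tested. All list genes other than Mir204 and Mir211 belong to Htr2c on chromosome X, so the genes that passed are not separate loci. The median log2 ratio of the list was 1.35 against −0.09 over all 522 genes tested. This list and those below were chosen with earlier results of these data known. Mir1298 and Mir1264 had also been named above by their ratio, so the number called is not independent evidence. Mir204, the gene of Trpm3, had 7102 and 2780 CPM (log2 ratio 1.35), and Mir1264 had 51.3 and 15.5 CPM (1.72). Mir764, from the same Htr2c region, had 34.6 and 35.9 CPM (−0.05) and did not pass. Mir211, of Trpm1, had 25 and 20 counts and did not pass either. Among those that passed, Mir448 had a log2 ratio of 0.32, and Mir1912 had only 10 counts in replicate 1 and 1 in replicate 2. Most of the summed level came from Mir204 and Mir1298. The part of choroid plexus in the levels of Mir34b and Mir34c was not tested, and in bulk tissue fewer cells of a type and less RNA per cell cannot be told apart.

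Epithelial miRNA genes, which could come with ciliated or secretory epithelium, were read in the same way. All 7 were counted, none was at 0, and they summed to 375 CPM in replicate 1, against 707 CPM in replicate 2. In this list 1 gene passed as higher in replicate 1 (Mir203, 38.6 and 14.1 CPM) and 3 as lower (Mir200b, Mir200c and Mir141), beside 22.8% and 28.2% of all genes tested, so the number called was close to the background. The median log2 ratio was −0.16. Mir200b had 93.0 CPM in replicate 1, against 345 CPM in replicate 2 (log2 ratio −1.89). Their part in the levels of the family was not tested. The oligodendrocyte genes Mir219a-2 and Mir338 summed to 5805 CPM in replicate 1, against 8777 CPM in replicate 2, the direction of Mir34a and Mir449a. Most of this difference came from Mir219a-2, with 3630 and 6444 CPM (log2 ratio −0.83). Mir338 was nearly level, with 2175 and 2333 CPM (−0.10). Both passed as lower in replicate 1, beside 28.2% of all genes tested. The part of oligodendrocytes in the levels of the family was not tested either.

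Other miRNA genes that have been reported as p53-responsive, largely in human cells, were read beside Mir34a. Of the 10 listed, 8 were tested, 4 passed as higher and 2 as lower in replicate 1, beside 22.8% and 28.2% of all genes tested. The median log2 ratio was 0.19, and −0.09 over all 522 genes. Mir107, which lies in the pantothenate kinase gene Pank1, had 3806 CPM in replicate 1, against 2092 CPM in replicate 2 (log2 ratio 0.86), opposite to Mir34a. Mir143 (0.67), Mir145a (0.58) and Mir16-1 (0.43) also had higher levels in replicate 1. Mir15a, the cluster neighbour of Mir16-1, had 335 and 492 CPM (−0.56), and Mir200c had 68.3 and 151 CPM (−1.14). Mir192 and Mir194-2 did not pass, with 43 and 59 counts for Mir192 and 97 and 120 counts for Mir194-2 in replicates 1 and 2. Mir194-1 and Mir215 had 0 counts in both libraries.

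**Figure D4:**
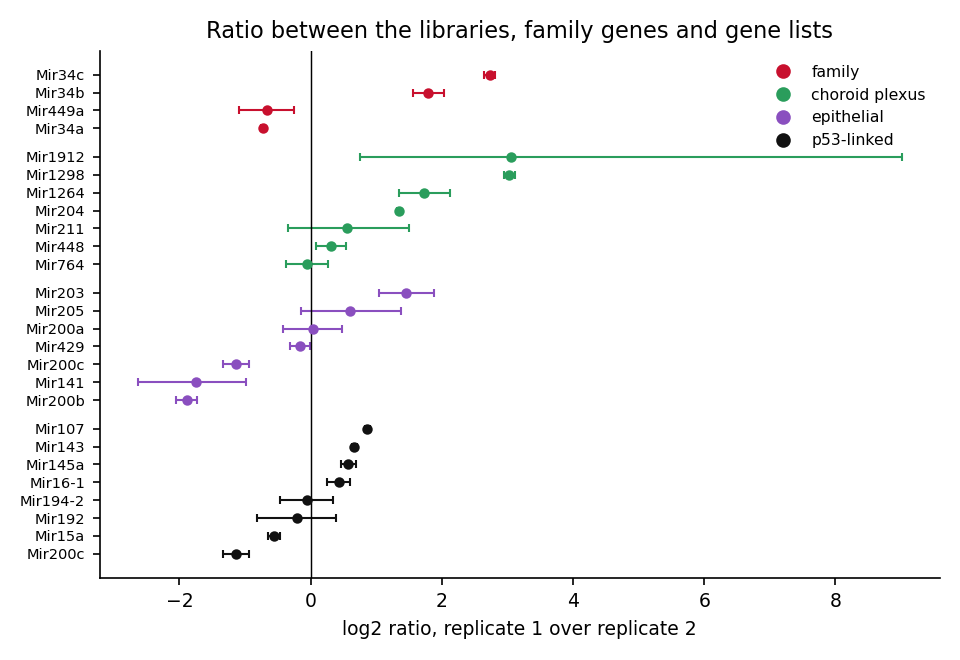
Log2 ratio of replicate 1 over replicate 2 for the tested genes of the family and of the choroid plexus, epithelial and p53-linked lists, with exact 95% intervals for counting error. Mir34c and Mir34b lie to the right of 0 with 6 of the 7 choroid plexus genes, of which Mir211 did not pass, whereas Mir449a and Mir34a lie to the left. Genes of the epithelial and p53-linked lists lie on both sides of 0.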

How the data were processed

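Small RNA reads were sequenced from 2 hippocampus libraries. The authors deposited raw read counts per miRNA gene, 1 table per library, made on mm10 with GENCODE M21 per the file headers; aligner and counter not given in the sources used here. Both tables have 3 count columns and 4 summary rows. The column on the gene's strand was used, summary rows were left out, and CPM was computed over all 2202 gene rows. The members and gene lists were chosen with earlier results of these data known. The libraries were compared with exact two-sided binomial tests on genes with at least 10 counts in sum, Benjamini-Hochberg adjustment over all of them and a threshold of 0.05, and with exact Fisher tests for shares within the family. Log2 ratios have 0.5 counts added. Adjusted p-values under 1e-290 were set to it. With 1 group, edgeR offers no quasi-likelihood test here. Genes named were the 6 members, the list members, and the 5 genes nearest in log2 ratio to Mir34c and to Mir34a among genes averaging 100 or more counts. Alternatives were TMM (edgeR 4.0.16) and DESeq2 1.42.0 scaling, all reads as library size, the column without strand, other count minimums, 2 added counts and each library left out. The binomial test was checked on simulated counts that held counting error only, so the check does not cover the spread between libraries. Python 3.11.15, numpy 2.4.6, pandas 2.3.3, scipy 1.17.1 and R 4.3.3 were used.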

Additional observations from a re-analysis of the deposited data

Results flagged for a closer look

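Reads on the strand opposite Mir34b are data that the comparisons did not use, and they exceeded the limit of 3 counts that a count of 0 allows. There were 5 in replicate 1 and 8 in replicate 2, which is 0.836% and 3.92% of the counts on the strand of Mir34b. No miRNA gene is annotated on that strand there, and the position lies within an intron of Btg4 on its strand. The set read beside it was the 2138 genes with no miRNA gene annotated over them on the other strand. Their pooled opposite-strand counts were 0.00309% of the sense counts in replicate 1 and 0.00328% in replicate 2. Abundant genes dominate this pooled share, so it is not a like measure to the share of Mir34b. Opposite-strand counts exceeded 3 in 6 genes in replicate 1 and in 9 in replicate 2, and Mir34b ranked 5th and 3rd by that count. The other 5 family genes had 0 opposite-strand counts in both libraries.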

How the results depend on the processing

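The direction and the call of Mir34a, Mir34b, Mir34c and Mir449a between the libraries were the same under all 7 alternatives of scaling, strand column, count minimum and added counts. Their log2 ratios covered −0.79 to −0.65, 1.73 to 1.87, 2.67 to 2.80 and −0.72 to −0.58. The count minimums changed only the set of genes adjusted over, and added counts do not enter the test. Those settings could therefore do little to the calls. The calls over all genes, 119 higher and 147 lower in replicate 1, became 135 and 123 with TMM, 135 and 122 with DESeq2 size factors, and 109 and 166 with all reads as library size. With all reads as library size, the mean level was 1519 CPM for Mir34a, 35.0 CPM for Mir34b, 433 CPM for Mir34c and 8.96 CPM for Mir449a, since that divides by reads off the miRNA genes too. Leaving out replicate 1 or replicate 2 gave levels of 2908 to 4823 CPM for Mir34a, 40.5 to 141 CPM for Mir34b, 296 to 1959 CPM for Mir34c and 17.7 to 28.0 CPM for Mir449a, so the levels of Mir34b and Mir34c rest on which library is read. Mir449b and Mir449c were too low for any alternative to be read. No paired analysis was possible because the samples form 1 group. Counts of Mir449a limit its comparisons, and 2 libraries give no test of a condition.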
